A study of Mus musculus with 12 samples.

Results

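A set of 10 genes of the machinery that turns prohormones into peptides was followed through the arcuate nucleus (ARC) of mice: the prohormone convertases *Pcsk1* and *Pcsk2*, the convertase inhibitor *Pcsk1n* and chaperone *Scg5*, the trimming and amidating enzymes *Cpe* and *Pam*, and the granins *Chga*, *Chgb*, *Scg2* and *Scg3*. They were taken by symbol from the deposited table, where each of the 10 occupied 1 of 38283 rows. The table compares ad libitum-fed male C57BL/6 mice aged 8 weeks that were wild-type (WT, n = 5) or homozygous for the R299Q substitution knocked into *Prkag2*, the gene of the γ2 subunit of AMP-activated protein kinase (Homo, n = 7). The mutation was carried in every cell of the animal from conception, so a difference in the ARC cannot be assigned to a cell type. ARC tissue was laser-captured from brain cryosections, and its RNA was amplified across the whole transcriptome before sequencing. Values are FPKM, the fragments on a gene per kilobase of transcript, scaled to the mapped fragments of the library. The labels name the libraries as separate samples without naming the animals, so p-values measure the spread between these libraries.

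Peptides of the ARC such as neuropeptide Y, agouti-related peptide and α-melanocyte-stimulating hormone are made as inactive precursors. In the trans-Golgi network and in maturing dense-core granules, prohormone convertases cut the precursors after pairs of basic residues, carboxypeptidase E removes the basic residues left at the new ends, and peptidylglycine α-amidating monooxygenase converts a C-terminal glycine to an amide. The protein of *Pcsk1n*, proSAAS, inhibits the convertase encoded by *Pcsk1*, and that of *Scg5*, 7B2, is needed for the convertase encoded by *Pcsk2* to mature. Granins are acidic proteins that aggregate with calcium and help to form the granule, and some are cut into peptides themselves. Loss of *PCSK1* function in people and of *Cpe* function in mice leads to obesity.

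The 12 libraries fell into 2 sets by the number of genes above 0. It was 15742 to 16467 in WT 1, WT 2 and Homo 1 to Homo 5 and 18141 to 18635 in WT 3 to WT 5, Homo 6 and Homo 7. One fragment on 1 kb of transcript, read from the lowest mode of low values, was worth 0.168 to 0.376 FPKM in the first set and 0.0944 to 0.150 in the second, so that the first was shallower by this measure. Genotype and set were unequally mixed, with 2 WT and 5 Homo libraries in the set with fewer genes and 3 WT and 2 Homo libraries in that with more, and differences are also given within the sets. Set membership is called the fewer-gene set and the more-gene set from here on. ARC markers were high in every library: summed over the 10 markers of ARC neurons, FPKM was 1343 to 4699 in WT and 3457 to 5247 in Homo, against at most 0.679 for the 2 ventromedial markers *Nr5a1* and *Fezf1*. *Oxt* and *Avp*, precursors made by magnocellular neurons of other hypothalamic nuclei, ranged from 1.25 to 646 and from 0.916 to 380.0 FPKM, highest in WT 5, and their part in the results was not tested. On the mean log2 scale WT 3 was lowest for the ARC and for the neuron markers. The upper quartile of FPKM over the genes tested was 15.0 in WT 3 and 14.8 in Homo 3, against 16.2 to 19.5 elsewhere. Its part in low readings of these 2 libraries was not tested gene by gene. Pituitary *Gh* was above 50 FPKM in WT 3, WT 5 and Homo 7 and at most 0.139 FPKM elsewhere. Other pituitary markers did not all follow it. *Cga* was 50.2, 0.996 and 0 FPKM in those libraries and 9.37 FPKM in Homo 4, and *Prl* was 0, 2.73 and 1.10 FPKM. *Pou1f1* was 0.700 to 0.946 FPKM in the more-gene set and 1.23 to 4.31 FPKM in the fewer-gene set. Whether pituitary tissue was carried into any library was not tested. In bulk tissue, fewer cells of a type and less RNA per cell cannot be told apart.

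All 10 genes were above 0 in every library and passed the filter of a mean of at least 1 FPKM. Compared per kilobase of transcript, their levels fell into tiers. *Cpe*, *Scg2* and *Pcsk1n* were the most abundant, with means over 12 libraries of 317, 297 and 286 FPKM, and at most 1.78% of the 14017 genes tested had a higher mean than any of the 3. *Chgb* followed at 126 FPKM, then *Scg5* at 89.0, *Scg3* at 85.8, *Pam* at 69.9 and *Chga* at 55.6 FPKM. *Pcsk2* and *Pcsk1*, the enzymes that cut the precursors, had the lowest levels at 15.0 and 14.5 FPKM, which 30.4% and 31.5% of the genes tested exceeded. Their longest annotated transcripts, of 4723 and 5040 bases, were also the longest of the 10. Whether transcript length bears on these FPKM was not tested. Of the 9 pairs of neighbours in this order, 4 differed by an exact two-sided sign-flip test over the 12 libraries after adjustment over the pairs. The order came from the same 12 libraries, so the pairs and their direction were not chosen independently of the values tested. The test asks only whether a gap in FPKM repeats across libraries. A shift of a gene by amplification could repeat too, so transcript abundance was not compared by it. *Pcsk1n* exceeded *Chgb* in 11 libraries by 1.12 on the log2 scale (adjusted p = 0.00439, exact). *Chgb* exceeded *Scg5* by 0.55 (adjusted p = 0.0146, exact), *Scg3* exceeded *Pam* by 0.31 (adjusted p = 0.0483, exact), and *Chga* exceeded *Pcsk2* in all 12 libraries by 1.80 (adjusted p = 0.00439, exact). *Cpe*, *Scg2* and *Pcsk1n* were not separated from each neighbour, nor were *Scg5* from *Scg3*, *Pam* from *Chga* (adjusted p = 0.0615, exact) or *Pcsk2* from *Pcsk1*.

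**Figure D1:**
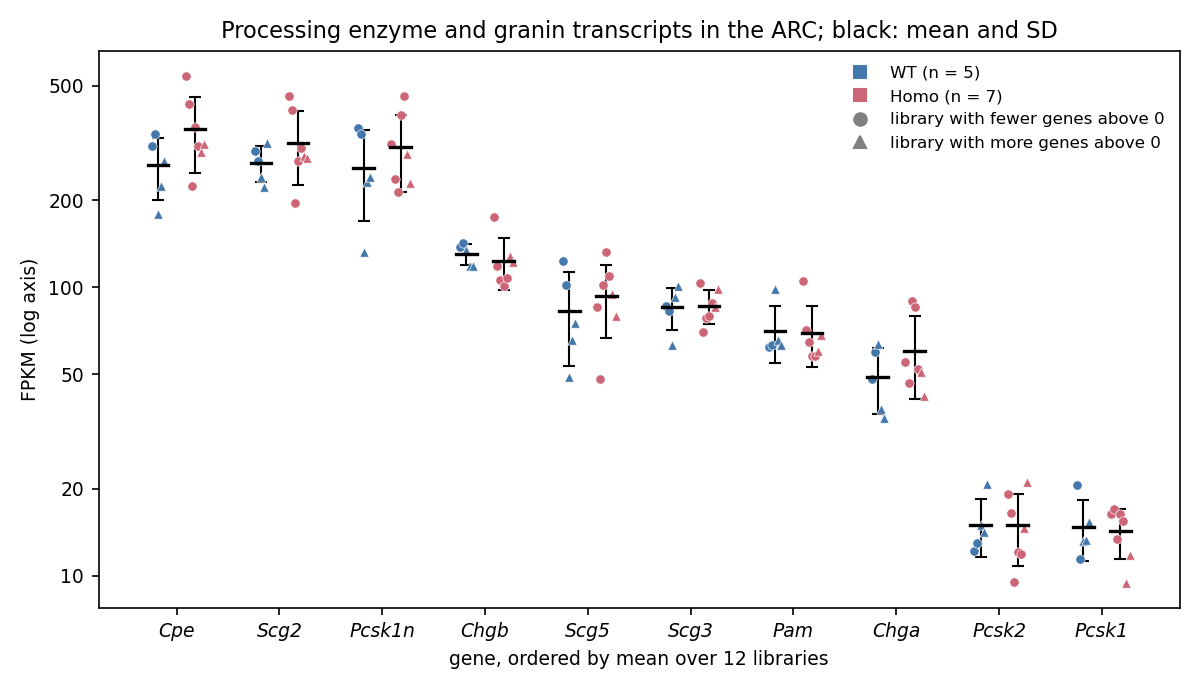
FPKM of each gene (log axis) in the 5 WT and 7 Homo libraries, with group mean and SD in black, and circles and triangles for libraries with fewer and more genes above 0. The genes span from 317 FPKM for Cpe to 14.5 FPKM for Pcsk1, and WT and Homo overlap for each of the 10.

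None of the 10 passed the test between genotypes. With limma and Benjamini-Hochberg adjustment over all 14017 genes tested, 0 of the 10 were called, and none had an unadjusted p under 0.05. Over all genes tested, 0.00713% were called and 5.55% had an unadjusted p under 0.05, with 3.05% higher and 2.50% lower in Homo. WT and Homo overlapped for all 10, while 0.221% of the genes tested did not overlap. The log2 fold change, Homo minus WT, was above 0 for 6 members and below 0 for 4, and its median was 0.11, against -0.0062 over all genes tested, of which 49.3% were higher. The 95% intervals of the fold change bounded what these libraries allow. For *Chgb*, *Scg3*, *Pam*, *Pcsk1* and *Pcsk2* they lay between 0.711-fold and 1.36-fold, and the widest upper bound of the other 5 was 1.83-fold for *Cpe*. The missed threshold does not show that the levels were equal.

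**Figure D2:**
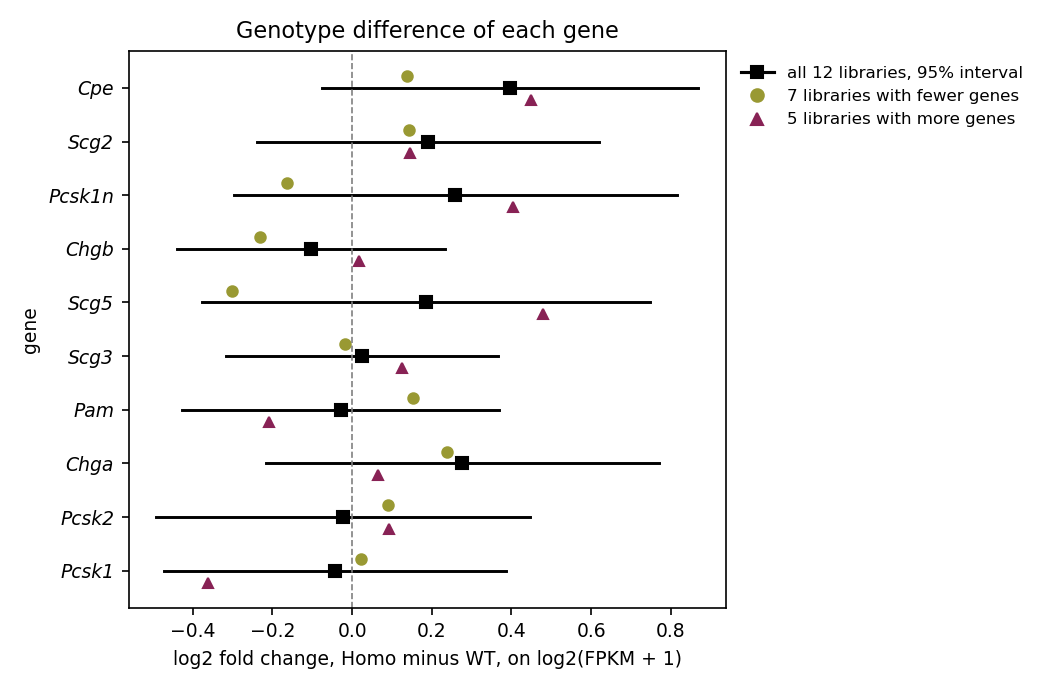
Log2 fold change of each gene, Homo minus WT, on log2(FPKM + 1): squares and lines give the value and 95% interval over 12 libraries, circles and triangles the differences within the 7 libraries with fewer and the 5 with more genes above 0. Every interval spans 0, and only 4 genes have the same sign in both sets.

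Among the convertases, *Pcsk1* (ENSMUSG00000021587, chromosome 13 of GRCm38 from 75089826 to 75134861) cuts pro-opiomelanocortin and other precursors early in the pathway. From WT 1 to WT 5, *Pcsk1* read 20.6, 11.5, 13.2, 13.3 and 15.4 FPKM, while Homo 1 to Homo 7 read 16.4, 17.1, 13.4, 16.3, 15.4, 9.48 and 11.9 FPKM. The highest value was that of WT 1 and the lowest that of Homo 6, and the groups overlapped throughout. The means were 14.8 ± 3.55 FPKM for WT (n = 5, ± SD) against 14.3 ± 2.82 FPKM for Homo (n = 7). Homo minus WT came to a log2 fold change of -0.044 (95% interval -0.47 to 0.39, limma adjusted p = 0.990, exact permutation p = 0.818). *Pcsk2* (ENSMUSG00000027419, chromosome 2 of GRCm38 from 143546156 to 143816285) makes the later cuts. *Pcsk2* had FPKM of 12.2, 13.0, 15.0, 14.2 and 20.8 from WT 1 to WT 5, and of 19.3, 16.5, 9.49, 12.1, 11.9, 14.7 and 21.1 from Homo 1 to Homo 7. Homo 7 and WT 5 were highest and Homo 3 lowest. The means were 15.0 ± 3.42 FPKM for WT (n = 5, ± SD) against 15.0 ± 4.20 FPKM for Homo (n = 7). For *Pcsk2* the log2 fold change, Homo minus WT, was -0.023 (95% interval -0.49 to 0.45, limma adjusted p = 0.994, exact permutation p = 0.909). Neither difference exceeded its standard error, which was 0.201 for *Pcsk1* and 0.220 for *Pcsk2* on the log2 scale. *Pcsk2* overlaps the antisense genes *Pcsk2os1* and *Pcsk2os2* of the annotation, and counting by strand is not stated, so reads of these could not be separated.

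The promoters of the convertases differ in composition. The 250 bases before the RefSeq start hold 46.8% G and C in *Pcsk1* and 82.4% in *Pcsk2*, with a median of 52.0% over 27025 mouse promoters. That of *Pcsk1* holds the cyclic AMP response element TGACGTCA and no GC box (GGGCGG; every motif here was searched on both strands), and that of *Pcsk2* holds 7 GC boxes, some overlapping, and no TGACGTCA. The stretches below, the first 219 and all 250 of those bases, are given so that the 2 can be compared, with the element in capitals in *Pcsk1* and the GC boxes in capitals in *Pcsk2*. They come from RefSeq on GRCm38.p6, plus strand, and end before the first annotated start.
Pcsk1, chr13:75089607-75089825: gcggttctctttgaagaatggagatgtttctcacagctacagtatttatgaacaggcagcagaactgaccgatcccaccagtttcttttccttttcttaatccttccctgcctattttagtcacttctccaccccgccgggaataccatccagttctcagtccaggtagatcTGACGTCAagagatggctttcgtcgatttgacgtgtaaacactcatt
Pcsk2, chr2:143545883-143546132: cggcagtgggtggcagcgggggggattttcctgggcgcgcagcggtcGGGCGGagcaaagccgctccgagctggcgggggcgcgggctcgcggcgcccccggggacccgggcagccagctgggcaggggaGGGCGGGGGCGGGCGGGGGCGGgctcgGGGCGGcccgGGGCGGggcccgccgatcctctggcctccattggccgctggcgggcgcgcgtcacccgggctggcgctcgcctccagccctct

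Among the 9 members with a RefSeq promoter (*Pcsk1*, *Pcsk2*, *Pcsk1n*, *Scg5*, *Pam*, *Scg2*, *Scg3*, *Chga* and *Chgb*), 3 held TGACGTCA in the 250 bases, against 1.62% of 27025 promoters of the same length. The shorter TGACG, which TGACGTCA contains on each strand, was found in 7 of the 9 and in 17.9% of promoters, GGGCGG in 6 and in 32.9%, and TATAAA in 0 and in 13.0%. These matches are descriptions and not binding sites. The element lay 78, 68 and 72 bases before the RefSeq start of *Pcsk1*, *Scg2* and *Chgb*, whose 30-base surroundings are set side by side here, on the strand of the gene, with the element in capitals.
Pcsk1, chr13:75089768-75089797, plus strand: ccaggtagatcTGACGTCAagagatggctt
Scg2, chr1:79440076-79440105, minus strand: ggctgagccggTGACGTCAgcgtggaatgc
Chgb, chr2:132781559-132781588, plus strand: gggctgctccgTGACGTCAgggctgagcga
Beyond the shared element the surroundings differ. Those of *Scg2* and *Chgb* lie inside an annotated exon of the gene in GENCODE, and that of *Pcsk1* lies upstream of every annotated transcript of the gene. The log2 fold changes of these 3 genes, Homo minus WT, were -0.044, 0.19 and -0.10, none past the test and not all of 1 sign.

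The partners of the convertases had higher FPKM than the enzymes and varied more. *Pcsk1n* (ENSMUSG00000039278, chromosome X of GRCm38 from 7919822 to 7924410) encodes proSAAS. From WT 1 to WT 5, *Pcsk1n* read 356, 339.5, 133, 231 and 241 FPKM, while Homo 1 to Homo 7 read 313, 238, 213, 395, 458, 289.6 and 230.1 FPKM. WT 3 was lowest of all and Homo 5 highest, a 3.45-fold range and the widest of the 10 members. The means were 260.1 ± 90.6 FPKM for WT (n = 5, ± SD) against 305 ± 91.8 FPKM for Homo (n = 7). Homo minus WT came to a log2 fold change of 0.26 (95% interval -0.30 to 0.81, limma adjusted p = 0.923, exact permutation p = 0.391). The difference was -0.16 within the fewer-gene set and 0.40 within the more-gene set, of opposite sign. It was 0.039 without WT 3 and 0.39 without WT 1. Part of *Eras* on the opposite strand overlaps *Pcsk1n*. *Scg5* (ENSMUSG00000023236, chromosome 2 of GRCm38 from 113776362 to 113829121) encodes 7B2. *Scg5* had FPKM of 123, 102, 48.7, 65.8 and 75.0 from WT 1 to WT 5, and of 85.7, 48.1, 102, 133, 109.7, 95.1 and 79.8 from Homo 1 to Homo 7. Homo 2 and WT 3 were lowest and Homo 4 and WT 1 highest, so that each genotype held both a low and a high library. The means were 82.9 ± 29.7 FPKM for WT (n = 5, ± SD) against 93.3 ± 26.4 FPKM for Homo (n = 7). For *Scg5* the log2 fold change, Homo minus WT, was 0.19 (95% interval -0.38 to 0.75, limma adjusted p = 0.945, exact permutation p = 0.514). It was -0.30 within the fewer-gene set and 0.48 within the more-gene set, the widest gap among the members (exact permutation p of the gap = 0.138). Without WT 3 the difference of *Scg5* was 0.015, and without WT 1 it was 0.35.

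*Cpe* (ENSMUSG00000037852, chromosome 8 of GRCm38 from 64592542 to 64693054), whose product trims basic residues from the cut peptides, had the largest difference of the 10. From WT 1 to WT 5, *Cpe* read 309.7, 339, 179.8, 225 and 273 FPKM, while Homo 1 to Homo 7 read 539.6, 432, 224, 359, 308, 295 and 314 FPKM. Homo 1, Homo 2 and Homo 4 exceeded every WT library, Homo 3 was below every WT library but WT 3, and WT 3 was lowest. The means were 265 ± 64.1 FPKM for WT (n = 5, ± SD) against 353 ± 104 FPKM for Homo (n = 7), a mean 33.1% higher in Homo. Homo minus WT came to a log2 fold change of 0.40 (95% interval -0.077 to 0.87, limma adjusted p = 0.906, exact permutation p = 0.117). It was higher in Homo in both sets, by 0.14 within the fewer-gene set and 0.45 within the more-gene set, and 0.28 once the set was modelled (genotype permuted exactly inside each set, p = 0.233). It was 0.27 without WT 3, 0.29 without Homo 1 and 0.50 without Homo 3. *Pam* (ENSMUSG00000026335, chromosome 1 of GRCm38 from 97795114 to 98095646) encodes the amidating enzyme that finishes α-melanocyte-stimulating hormone and neuropeptide Y. *Pam* had FPKM of 62.1, 62.9, 98.9, 65.8 and 63.3 from WT 1 to WT 5, and of 105, 71.4, 64.6, 58.0, 57.7, 60.2 and 68.5 from Homo 1 to Homo 7. WT 3 and Homo 1 stood far above the remaining libraries, which lay between 57.7 and 71.4 FPKM in both genotypes. The means were 70.6 ± 15.9 FPKM for WT (n = 5, ± SD) against 69.4 ± 16.7 FPKM for Homo (n = 7). For *Pam* the log2 fold change, Homo minus WT, was -0.029 (95% interval -0.43 to 0.37, limma adjusted p = 0.993, exact permutation p = 0.827).

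Of the granins, *Scg2* (secretogranin II; ENSMUSG00000050711, chromosome 1 of GRCm38 from 79434669 to 79440120) was most abundant. From WT 1 to WT 5, *Scg2* read 297, 275, 240.4, 223 and 315 FPKM, while Homo 1 to Homo 7 read 462, 413, 196, 274, 304, 286 and 282 FPKM. Homo 1 and Homo 2 exceeded every WT library and Homo 3 was below every one. The means were 270.0 ± 38.3 FPKM for WT (n = 5, ± SD) against 317 ± 90.5 FPKM for Homo (n = 7). Homo minus WT came to a log2 fold change of 0.19 (95% interval -0.24 to 0.62, limma adjusted p = 0.923, exact permutation p = 0.365). *Chgb* (chromogranin B; ENSMUSG00000027350, chromosome 2 of GRCm38 from 132781278 to 132795079) had a narrow range in WT, of 118 to 143 FPKM. *Chgb* had FPKM of 138, 143, 135, 119 and 118 from WT 1 to WT 5, and of 176, 118, 106, 101, 108, 129 and 122 from Homo 1 to Homo 7. Homo 1 was highest, and the other 6 Homo libraries were below the WT median of 135 FPKM. The means were 130.4 ± 11.3 FPKM for WT (n = 5, ± SD) against 123 ± 25.3 FPKM for Homo (n = 7). For *Chgb* the log2 fold change, Homo minus WT, was -0.10 (95% interval -0.44 to 0.23, limma adjusted p = 0.953, exact permutation p = 0.453).

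*Scg3* (secretogranin III; ENSMUSG00000032181, chromosome 9 of GRCm38 from 75643189 to 75684056), which tethers granule cargo to the membrane, differed least between libraries. From WT 1 to WT 5, *Scg3* read 85.8, 82.8, 63.0, 92.9 and 101 FPKM, while Homo 1 to Homo 7 read 104, 69.9, 78.6, 79.6, 88.4, 85.2 and 98.7 FPKM. Its highest value was 1.65 times its lowest, with WT 3 lowest and Homo 1 highest. The means were 85.1 ± 14.3 FPKM for WT (n = 5, ± SD) against 86.3 ± 11.8 FPKM for Homo (n = 7). Homo minus WT came to a log2 fold change of 0.025 (95% interval -0.32 to 0.37, limma adjusted p = 0.993, exact permutation p = 0.847). *Chga* (chromogranin A; ENSMUSG00000021194, chromosome 12 of GRCm38 from 102554969 to 102565028) behaved otherwise. *Chga* had FPKM of 48.1, 59.9, 63.6, 38.0 and 35.3 from WT 1 to WT 5, and of 55.1, 46.5, 89.7, 85.6, 52.3, 50.8 and 41.9 from Homo 1 to Homo 7. Homo 3 and Homo 4 stood above every other library, and WT 5, WT 4 and Homo 7 were lowest. The means were 49.0 ± 12.7 FPKM for WT (n = 5, ± SD) against 60.3 ± 19.2 FPKM for Homo (n = 7). For *Chga* the log2 fold change, Homo minus WT, was 0.28 (95% interval -0.22 to 0.77, limma adjusted p = 0.919, exact permutation p = 0.270). The residual SD within genotypes, on the log2 scale, was 0.221 for *Scg3* and 0.220 for *Chgb*, and 98.2% and 98.3% of the genes tested had a larger one. It was 0.483 for *Scg5* and 0.481 for *Pcsk1n*, which 55.6% and 56.0% exceeded. These shares are over all genes tested, down to a mean of 1 FPKM, and were not taken among genes of like level.

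Over the 12 libraries the Pearson r of log2 values was above 0 for 30 of 45 pairs of members, with a median of 0.22, as a description of libraries that share depth and scaling. It was 0.86 for *Scg2* and *Cpe* and 0.78 for *Scg5* and *Pcsk1n*, and -0.68 for *Chga* and *Pcsk2*. On the log2 scale Homo 1 was above the gene's mean for all 10 and highest of 12 for 5 of them (*Cpe*, *Pam*, *Scg2*, *Scg3* and *Chgb*), and it also had the highest mean log2 of the 8 neuron markers. WT 3 was lowest for *Cpe*, *Pcsk1n* and *Scg3* yet had the highest WT values of *Pam* and *Chga*. Homo 3 was lowest for *Pcsk2* and *Scg2* and highest for *Chga*. WT 3 and Homo 3 also had the lowest upper quartiles of FPKM over the genes tested. The mean of the 10 on the log2 scale was 6.35 ± 0.15 in WT (n = 5, ± SD) against 6.46 ± 0.17 in Homo (SD, n = 7), a difference of 0.11. That of the neuron markers differed by 0.087, and less the neuron markers the members differed by 0.027. This last difference was 0.084 within the fewer-gene set and -0.19 within the more-gene set, of opposite sign. Relative to the neuron markers the log2 fold change of *Cpe* was 0.31 (limma adjusted p = 0.773).

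**Figure D3:**
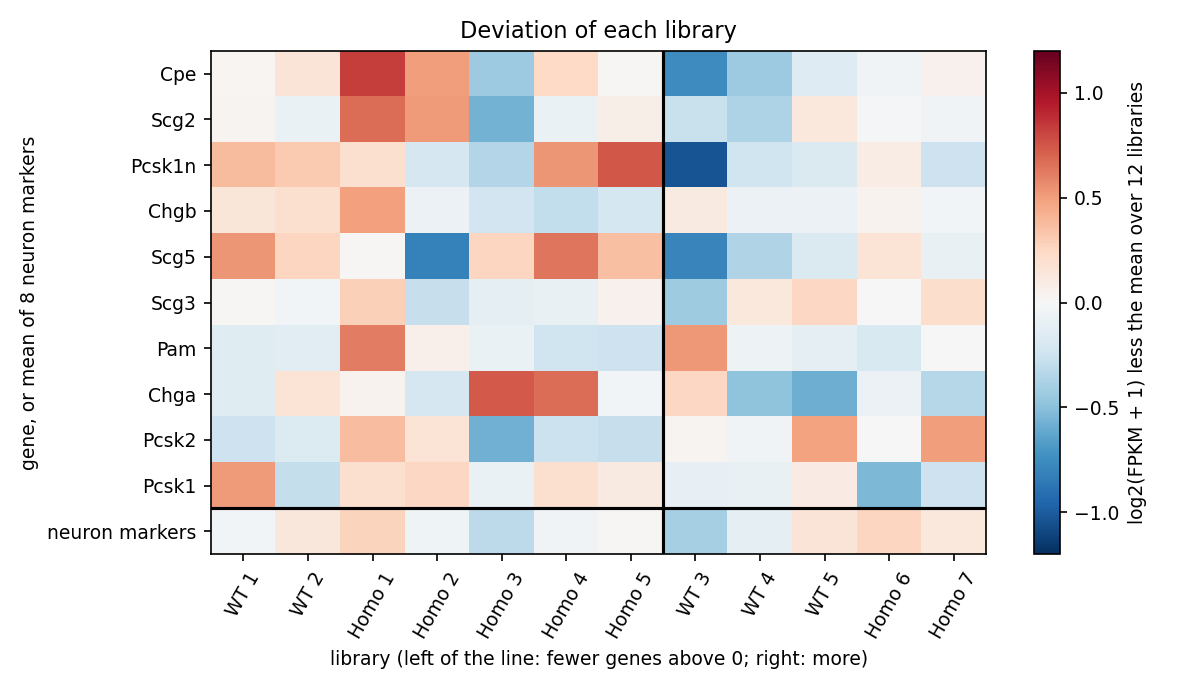
Log2(FPKM + 1) of each gene less its mean over 12 libraries (colour), by library, with the mean of 8 neuron markers in the bottom row and the sets parted by the vertical line. Homo 1 is above the mean in all 10 genes, and WT 3 is lowest for Cpe, Pcsk1n and Scg3 and high for Pam.

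Between the library sets, adjusted for genotype, 7 members were lower and 3 higher in the libraries with more genes above 0. None was called (limma, adjusted over all genes tested, of which 0.178% were called), and *Pcsk1n* alone had an unadjusted p under 0.05 (log2 difference -0.52, limma adjusted p = 0.591), where 8.42% of the genes tested did. The convertases lay on opposite sides, at -0.35 for *Pcsk1* and 0.36 for *Pcsk2*. With the set in the model the genotype differences ranged from -0.15 for *Pcsk1* to 0.28 for *Cpe*. In that model 0 members were called or had an unadjusted p under 0.05 (limma), where 0.00713% and 4.78% of the genes tested did. The sign was the same in both sets for 4 members (*Pcsk2*, *Cpe*, *Scg2* and *Chga*). Neither this count nor that of the 7 lower and 3 higher between sets was taken over all genes tested.

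Within each library 10 ratios were taken, and log2 ratios are of FPKM + 1. The *Pcsk1* to *Pcsk2* ratio was -0.026 ± 0.43 in WT (n = 5, ± SD) against -0.047 ± 0.50 in Homo (SD, n = 7) on the log2 scale, near equal levels of both convertases (exact permutation p = 0.947). It was below 0 in all 5 libraries with more genes above 0, from -0.78 to -0.090, and between -0.22 and 0.72 in the other 7. The FPKM of the inhibitor exceeded that of the enzyme in every library, with a *Pcsk1n* to *Pcsk1* ratio from 10.1 in WT 3 to 30.5 in Homo 6. The FPKM of the chaperone also exceeded that of *Pcsk2* in every library, with a *Scg5* to *Pcsk2* ratio from 2.91 in Homo 2 to 11.02 in Homo 4. No ratio passed the test between genotypes. The smallest exact permutation p was that of *Scg2* to *Chgb* (1.04 ± 0.23 in WT and 1.33 ± 0.29 in Homo, p = 0.0922, 0.579 after adjustment over the 10). The differences, Homo minus WT, were -0.43 for *Pam* to *Cpe*, 0.38 for *Chga* to *Chgb*, 0.30 for *Pcsk1n* to *Pcsk1*, -0.25 for *Scg3* to *Chga* and 0.21 for *Scg5* to *Pcsk2*. For *Pam* to *Cpe* WT 3 stood apart, at -0.86 against -1.76 or less in the other 11 libraries, and without it the difference was -0.17.

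**Figure D4:**
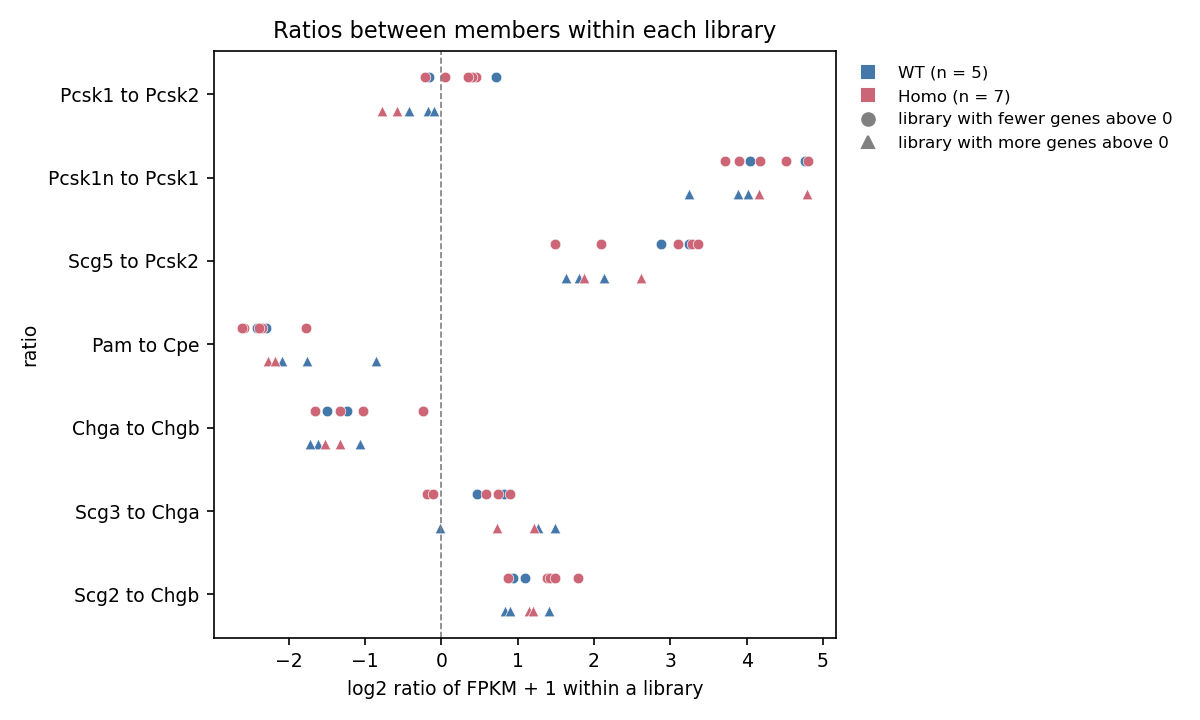
Log2 ratio of FPKM + 1 between pairs of members within each library, coloured by genotype, with circles and triangles for libraries with fewer and more genes above 0. The Pcsk1 to Pcsk2 ratio is below 0 in the 5 libraries with more genes, and WT and Homo overlap in every ratio.

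Set against the peptide precursors, the FPKM of *Cpe* was 0.175 to 0.372 times that of *Npy*, with a log2 difference of -0.21 between genotypes (exact permutation p = 0.341). *Pomc* exceeded both convertases in every library. The *Pcsk1* to *Pomc* ratio was -5.28 ± 1.14 in WT and -5.71 ± 0.63 in Homo (exact permutation p = 0.428), and that of *Pcsk2* to *Pomc* was -5.25 ± 1.23 and -5.66 ± 0.55 (exact permutation p = 0.463). Without WT 3 the differences of -0.43 and -0.41 became -0.044 and 0.013, and without WT 2 they became -0.80 and -0.74. Both ratios were highest in WT 3, which was also lowest for the ARC and for the neuron markers. *Gh* was 61.5 FPKM in WT 3, and 64.5 and 54.5 FPKM in WT 5 and Homo 7. In WT 5 and Homo 7 the *Pcsk1* to *Pomc* ratio was -5.72 and -6.27, and that of *Pcsk2* to *Pomc* was -5.30 and -5.49. Whether either bears on the ratios was not tested.

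Genes that act beside the members were read from lists, and 0 of their genes were called by limma over all genes tested. Of 17 other maturation enzymes, 15 were tested, with 9 higher and 6 lower in Homo and a median log2 fold change of 0.056. *Pcsk5* (0.879 FPKM in WT and 1.17 in Homo) passed the filter only through Homo. Its sign was thus favoured by the filter, and it counts among those higher. The most abundant were *Ctsl* (47.4 FPKM), a cathepsin that can also cut precursors, *Cyb561* (13.9 FPKM), which supplies electrons within granules, and the tyrosine sulphotransferase *Tpst1* (12.1 FPKM). *Furin* and *Pcsk4* to *Pcsk7* lay between 1.05 and 2.31 FPKM, below *Pcsk1* and *Pcsk2*. *Qpct*, which makes N-terminal pyroglutamate, was the 1 gene of the list with an unadjusted p under 0.05, at 8.18 ± 2.24 FPKM for WT against 11.4 ± 2.01 FPKM for Homo (log2 fold change 0.46, limma adjusted p = 0.899). Of 15 peptide-degrading enzymes, 11 were tested, with 5 higher and 6 lower and a median of -0.056. *Trhde* (1.58 FPKM in WT and 0.864 in Homo) passed the filter only through WT and counts among those lower. *Ece1*, *Npepps* and *Ece2* were most abundant, at 138, 60.8 and 15.2 FPKM. *Ece1*, an endothelin-converting enzyme, had the 1 unadjusted p under 0.05, at 217 ± 202 FPKM for WT against 80.9 ± 38.9 FPKM for Homo (log2 fold change -1.16, limma adjusted p = 0.899).

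All 21 dense-core vesicle genes were tested, 11 were higher and 10 lower, and 0 had an unadjusted p under 0.05, with a median of 0.013. The most abundant of this list were *Gnas* (691 FPKM), *Resp18* (581 FPKM) and *Rab3a* (192 FPKM), with log2 fold changes of -0.026, 0.45 and 0.084. The value of *Gnas* covers all transcripts of the gene, which values per gene cannot separate. Of 8 transcription factors tied to these genes, 6 were tested, with a median of -0.11 and 0 with an unadjusted p under 0.05. *Crem* and *Creb1*, which bind the cyclic AMP response element, were at 12.5 and 4.04 FPKM and *Myt1* at 7.27 FPKM. The repressor *Rest*, which keeps granule genes silent outside neurons and endocrine cells, had a mean of 0.513 FPKM and was not tested. *Rest*, *Furin*, *Pcsk4* to *Pcsk7* and *Trhde* were chosen after their values were seen.

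Of 23 propeptide genes, 20 were tested, 17 with a log2 fold change above 0 and 3 below, and their median log2 fold change was 0.42, against 0.11 for the members. That of the precursors was 0.22 without WT 3, 0.22 without WT 4, 0.61 without WT 2 and 0.28 with the set in the model, where 15 of 20 were above 0. None of the 20 was called. *Hcrt* (0 FPKM in WT and 1.81 in Homo) and *Nms* (0.472 and 1.51 FPKM) passed the filter only through Homo. Their signs were thus favoured by the filter, and they count among those above 0. *Npy*, *Agrp* and *Nts* had an unadjusted p under 0.05, where 3.05% of the genes tested did so with a higher mean in Homo. Their limma adjusted p were 0.887, 0.899 and 0.783. *Nts*, neurotensin, was at 1.33 ± 1.21 FPKM for WT against 3.49 ± 1.39 FPKM for Homo, a log2 fold change of 1.05. *Sst*, the most abundant precursor at 1367 FPKM, had a log2 fold change of -0.22, and *Pomc* one of 0.38. With the set in the model those of *Npy* and *Agrp* went from 0.60 and 0.60 to 0.41 and 0.30, and *Agrp* was lower in the more-gene set (log2 difference -0.94, limma adjusted p = 0.0293). The mean of the 20 precursors less that of the members was -1.10 ± 0.33 in WT (n = 5, ± SD) against -0.78 ± 0.29 in Homo (SD, n = 7) on the log2 scale, and the groups overlapped. The difference was 0.10 within the fewer-gene set and 0.61 within the more-gene set, where WT 3 and WT 4 had the lowest precursor means. The 20 included *Hcrt* and *Nms*. They also included *Avp* (log2 fold change 2.15, standard error 1.39) and *Oxt* (0.49, standard error 1.69) of other hypothalamic nuclei. The part of these genes in the difference was not tested. The 6 microglia markers, 2 of them with an unadjusted p under 0.05, summed to 28.0 to 44.8 FPKM in WT and 41.7 to 71.8 FPKM in Homo, none at 0 and 0 called, and their part in these values was not tested.

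**Figure D5:**
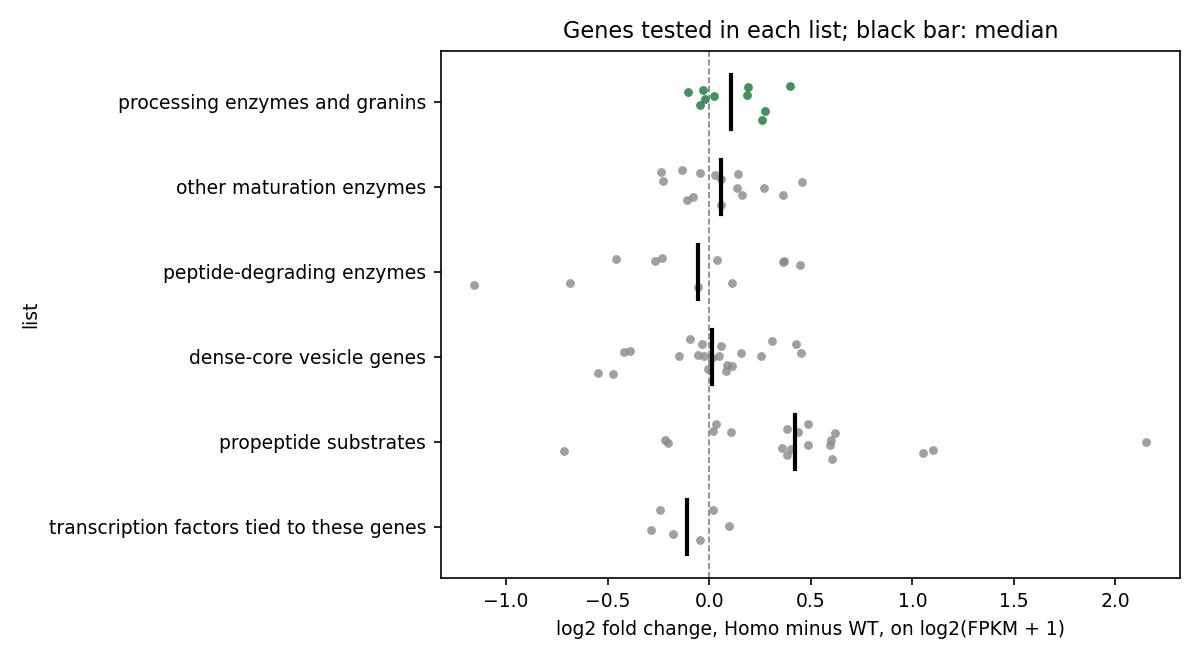
Log2 fold change, Homo minus WT, on log2(FPKM + 1), of each gene tested (points) in the set of processing enzymes and granins and in 5 lists, with the median as a black bar. Processing enzymes and granins lie between -0.10 and 0.40, and 17 of 20 propeptide substrates lie above 0. Among these, Hcrt and Nms passed the filter only through Homo.

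Outside these lists, 6 genes followed the members most closely. For the mean standardised profile of the 10 over 12 libraries, and among 5864 other genes with a mean of at least 10 FPKM, these were *Psd* (Pearson r 0.90, Spearman rho 0.66), *Phyhipl* (Pearson r 0.90, Spearman rho 0.90), *Gnao1* (Pearson r 0.90, Spearman rho 0.83), *Hsd17b12* (Pearson r 0.88, Spearman rho 0.76), *Ypel4* (Pearson r 0.88, Spearman rho 0.66) and *Prpf6* (Pearson r 0.87, Spearman rho 0.76). Over the 7 libraries with fewer genes above 0 their Pearson r was 0.88 to 0.92. The values describe these libraries, share their depth and scaling, and carry no test. *Gnao1*, a G protein subunit abundant in neurons, had the highest level of the 6 at 498 FPKM.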

How the data were processed

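RNA-seq libraries of laser-captured ARC (5 WT and 7 Homo) were analysed from 1 table of FPKM values. The authors deposited FPKM per gene and library. The submitters' processing notes name TopHat2 2.0.8, Cufflinks 2.2.1 and GRCm38, without settings. All 12 columns were matched by their labels (Homo 4 and Homo 5 carry an extra letter) and 0 were left over. Amplification before sequencing and FPKM scaling can shift levels between genes and libraries, and the table holds no counts.

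FPKM were transformed to log2(FPKM + 1), a scale that understates changes of low genes. Genes with a mean of at least 1 FPKM (14017) entered limma 3.58.1 under R 4.3.3 (trend and robust variances, genotype only), with Benjamini-Hochberg adjustment at 0.05. Single values were also tested by exact two-sided permutation over 792 splits, for which the smallest p is 0.00126, or over 210 rearrangements within library sets, where it is 0.00476. The sets were found by the largest gap in genes above 0. The scripts were tested on simulated data, where limma called 36% of the genes given a log2 change of 1 and 93% of those given 2. Only genes with a mean log2(FPKM + 1) above 2 were given a change. Libraries were drawn independently and without library sets, so these shares need not hold for the real libraries. Changes as small as those of the members were not simulated. Spearman correlations between libraries, across genes, were 0.762 to 0.854, and no library copied another. Positions are from GENCODE M21 on GRCm38, where 97.5% of tested identifiers were found. The members and lists were chosen with earlier results of these data known, so no test was made of the set and no p adjusted over it. Named genes were the 10 members, the 3 most abundant genes of each list and up to 4 with an unadjusted p under 0.05, all fixed ratios and the 6 genes of most similar profile. Alternatives covered pseudocounts, filters, scaling, weights, library sets, left-out libraries, a replicate block and neuron markers.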

Additional observations from a re-analysis of the deposited data

Results flagged for a closer look

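In 40 groups tested, 4 held a library far from the others, and chance alone marks about 1 group in 20. *Pam* in WT 3 was 98.9 FPKM, a gap to the nearest WT library of 0.899 of the WT range. *Pam* in Homo 1 was 105 FPKM, with a gap of 0.713 of the Homo range. *Chgb* in Homo 1 was 176 FPKM, with a gap of 0.636. The *Pcsk1* to *Pcsk2* ratio in WT 1 was 0.72 on the log2 scale, with a gap of 0.711 of the WT range.

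The genotype difference of 2 ratios, which share *Pomc*, was flagged as unlike between the library sets before any adjustment. For *Pcsk1* to *Pomc* it was 0.74 within the fewer-gene set and -1.77 within the more-gene set, a gap of -2.52 (exact permutation of genotype within sets, p = 0.0286, not adjusted over the 20 members and ratios examined). For *Pcsk2* to *Pomc* it was 0.81 and -1.32, a gap of -2.13 (exact permutation p = 0.0286). The gap was -0.38 for *Pcsk1* alone and 0.0034 for *Pcsk2* alone. Both ratios were lowest in WT 2 of the fewer-gene set and highest in WT 3 of the more-gene set.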

How the results depend on the processing

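The libraries hold no counts, and standard errors of 0.158 to 0.263 on the log2 scale limited what could be seen for the members. None of the 10 was called by limma under any alternative. *Cpe*, the 1 member with an unadjusted p under 0.05 in any of them, had it with upper quartile scaling, array weights, without Homo 3 and with the replicate block, and its log2 fold change ranged from 0.14 to 0.50, above 0 in all 27. The median of the members, 0.11, ranged from 0.018 (relative to neuron markers) to 0.15 (without Homo 6 and Homo 7) and was 0.027 without WT 3 and 0.036 without Homo 1. Under the alternatives run for them, 0 ratios, 0 list genes and 0 members between library sets were called, though the ratios in pairs of equal number could not pass with 5 pairs. Over all genes tested, 1 was called, against 0 at a mean of at least 10 FPKM (limma; 393 with an unadjusted p under 0.05), 6 in the fewer-gene libraries alone, 19 in the more-gene libraries alone, 4 without Homo 6 and Homo 7, 2 with the replicate block and 1 to 3 with 1 library left out (3 without WT 2, 2 without Homo 4). Leaving out the libraries with *Gh* (WT 3, WT 5 and Homo 7), an alternative chosen after seeing the data, gave 2 and a median of the members of 0.036. Signs turned for the following values, none of them called, and the cause was not tested. In the fewer-gene libraries the log2 fold change was 0.022 for *Pcsk1*, 0.090 for *Pcsk2*, -0.16 for *Pcsk1n*, -0.30 for *Scg5*, 0.15 for *Pam* and -0.017 for *Scg3*, and in the more-gene ones 0.093 for *Pcsk2* and 0.018 for *Chgb*. Without the libraries with *Gh* it was 0.055 for *Pcsk2*, -0.037 for *Scg5*, 0.094 for *Pam* and -0.058 for *Scg3*. *Pcsk2* was at 0.027 with array weights and 0.091 with the set in the model, and *Scg3* at -0.062 relative to neuron markers. Without Homo 6 and Homo 7, and equally with the replicate block, it was 0.11 for *Pcsk1*, 0.0033 for *Pam* and -0.014 for *Scg3*. The *Scg5* to *Pcsk2* ratio was at -0.036 with the set in the model, and *Pcsk1* to *Pcsk2* at 0.23 in pairs of equal number. With 1 library left out, *Pcsk1* ranged from -0.12 to 0.077, *Pcsk2* from -0.11 to 0.094, *Pam* from -0.13 to 0.10, *Scg3* from -0.078 to 0.091, *Pcsk1* to *Pcsk2* from -0.12 to 0.17 and *Pcsk2* to *Pomc* from -0.74 to 0.013. Replicate numbers showed no pairing of the libraries: same-numbered WT and Homo libraries deviated together with correlations of -0.023 to 0.029, and 1 of the 5 numbers correlated best with itself. The largest correlations between unlike numbers were also only 0.016 to 0.041, so these values cannot exclude a pairing. With the block *Cpe* was at 0.46 (limma adjusted p = 0.688).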
